A study of Mus musculus with 4 samples.

Results

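The 10 genes described here encode the proteins that start and tune Notch signalling: the receptors Notch1, Notch2, Notch3 and Notch4, the ligands Dll1, Dll4, Jag1 and Jag2, and the fringe enzymes Lfng and Mfng. They were taken by name, and every probe set annotated to exactly 1 of them was used, which gave 20 probe sets out of 45037 on the array and 10 genes out of 18193. All 20 entered the test, since no filter on level was applied. The samples were lineage-negative, cKit-positive, Sca1-positive (LSK) cells from the livers of mouse embryos at the E13.5 stage, the cell fraction that contains blood stem cells and multipotent progenitors. The labelled groups were HES1-GFP positive (1 array) and HES1-GFP negative (3 arrays), sorted from embryos of genotype Hes1 GFP/WT, so that cells of both groups carried the reporter at 1 allele and a wild-type Hes1 at the other. The labels give all 4 samples as female, name no strain and no treatment, and do not say whether embryos were pooled or whether separate litters gave the 3 negative samples. P-values therefore measure only the spread between these samples, which may be technical, and they assume that the lone positive array varies like the negative ones.

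Notch proteins are transmembrane receptors that are switched on by ligands of the Delta-like and Jagged families on a neighbouring cell. Binding leads to cleavage by an ADAM metalloprotease and then by gamma-secretase, and the freed intracellular domain enters the nucleus, binds RBPJ and turns on targets such as Hes1. Fringe enzymes lengthen the O-fucose sugars on the receptors' extracellular repeats, which generally strengthens the response to Delta-like ligands and weakens that to Jagged ligands. In blood development the pathway is known for its part in the emergence of stem cells and in T cell commitment.

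Facts of the whole series bear on every value below. Array medians were 74.8 to 76.1 on the linear intensity scale. Values are log2 intensities of probe sets made comparable between arrays by RMA, a method that equalizes the arrays' distributions. A probe set's level can be compared between arrays but not with that of another probe set. Hes1, the reporter gene, was measured at 6.57 in the positive-labelled array, against 8.78, 9.07 and 6.70 in negative replicates 1, 2 and 3. It thus ran against the labels, so groups are named only as labelled, and any direction is that of the positive-labelled array against the negative-labelled ones. Of the LSK markers, Kit was at 10.13 in the positive-labelled array and at 9.90, 9.72 and 9.68 in negative replicates 1, 2 and 3, while Ly6a, which encodes Sca1, was not analysed here. Over the 9 LSK markers measured, the positive-labelled array was above the negative range in 4, within it in 4 and below it in 1, Flt3, at 11.07 against 12.12, 11.95 and 11.63. Over all 18193 genes it was above the range of the negative arrays in 23.6%, within it in 53.4% and below it in 23.0%. In a bulk sample, fewer cells of a type and less RNA per cell cannot be told apart.

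Between the labelled groups none of the 20 probe sets passed. limma called 0 of them at an adjusted p under 0.05, and 0 of all 45037 probe sets (0%). At an unadjusted p under 0.05 it gave 1 of the 20 and 2032 of all (4.51%). The positive-labelled array was below every negative array in 7 of the 20 probe sets (35%), as in 23.6% of all probe sets. It lay above the negative range in 2 (10%), where 23.2% of all did, and within it in 11 (55%), where 53.1% of all did. The median difference, labelled positive minus labelled negative, was -0.37 log2 units over the 20 probe sets and -0.01 over all probe sets. With 1 array against 3, the smallest one-sided p of an exact permutation test is 0.25.

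**Figure D1:**
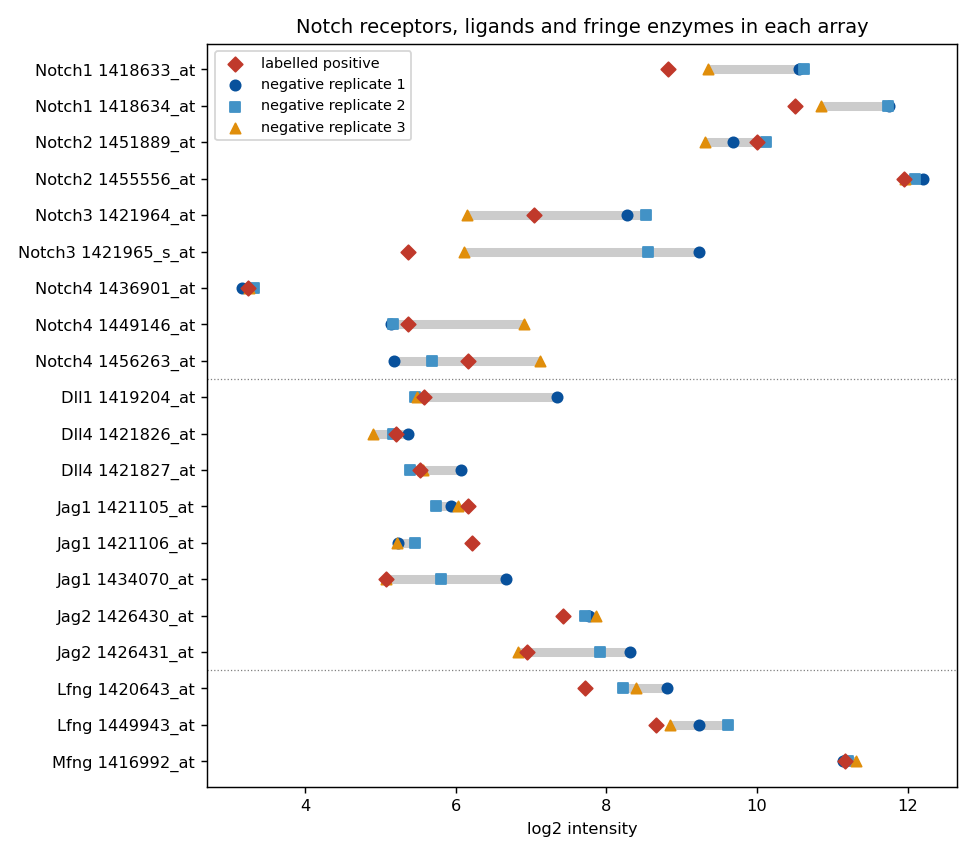
Log2 intensity (x axis) of each of the 20 probe sets (rows, receptors above, ligands in the middle, fringe enzymes below) in the array labelled HES1-GFP positive and in HES1-GFP negative replicates 1, 2 and 3. Grey bars span the 3 negative arrays, and the positive array sits left of the bar in 7 rows and right of it in 2.

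The receptors differed among themselves in how they varied across the arrays. Notch1 and Notch3 were brightest in negative replicates 1 and 2, Notch4 was brightest in negative replicate 3 in 2 of its 3 probe sets, and Notch2 had a range of only 0.26 log2 units in 1 of its 2 probe sets. Over the 9 receptor probe sets the positive-labelled array lay below the negative range in 4 (44.4%), within it in 5 and above it in 0. Over all probe sets these shares were 23.6%, 53.1% and 23.2%. The differences of the 9 between the labelled groups had a median of -0.38 log2 units and ran from -2.60 to 0.29.

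Notch1 is the receptor required for T cell commitment and for the emergence of definitive blood stem cells. Its probe set 1418633_at had a log2 intensity of 8.82 in the positive-labelled array, against 10.56, 10.63 and 9.34 in negative replicates 1, 2 and 3. Its probe set 1418634_at was at 10.50 in the positive-labelled array, against 11.75, 11.74 and 10.85. In both probe sets the positive-labelled array was the lowest, negative replicate 3 came next, and replicates 1 and 2 were the highest and close to each other. The differences between the labelled groups were -1.36 (SE 0.63, 95% interval -3.15 to 0.44) and -0.95 (SE 0.47, 95% interval -2.29 to 0.39). On the linear scale these are 0.391 and 0.519 times the geometric mean of the negative arrays. Neither passed limma's test, with an adjusted p of 1.00 for each. Set against negative replicate 3 alone, the positive-labelled array was lower by less, with differences of -0.52 and -0.35.

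Notch3, a receptor best known from vascular smooth muscle and from developing T cells, is itself turned on by Notch signalling in several tissues. Its probe set 1421964_at was at 7.04 in the positive-labelled array, against 8.27, 8.52 and 6.15 in negative replicates 1, 2 and 3. Probe set 1421965_s_at was at 5.37 in the positive-labelled array, against 9.23, 8.56 and 6.10. Both probe sets were high in negative replicates 1 and 2 and low in the other 2 arrays, but they disagreed on which of these was lowest: negative replicate 3 in 1421964_at and the positive-labelled array in 1421965_s_at. The groups overlapped in the first and did not in the second. The second had the widest range of the 20 over the 4 arrays, 3.86 log2 units, a range that 0.444% of all probe sets reached. Its difference between the labelled groups was -2.60 with an SE of 1.39 and a limma adjusted p of 1.00. The other Notch3 probe set differed by -0.61 with an SE of 1.11. The ending _s_at marks a probe set whose probes match more than 1 transcript, of the same gene or of another, so its signal may not come from Notch3 alone.

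Promoters of the 10 genes were sought in RefSeq (build GRCm38.p6). The 250 bases before each annotated start were read 5′ to 3′ on the gene's strand. They were searched for the core of the RBPJ motif, TGGGAA, on both strands (TTCCCA on the other). The promoters of Notch1 and Notch3 are printed here. Neither held a match, so all letters are in lower case. The Notch1 stretch is chr2:26503823-26504072 and the Notch3 stretch chr17:32166891-32167140, both on the minus strand.
Notch1: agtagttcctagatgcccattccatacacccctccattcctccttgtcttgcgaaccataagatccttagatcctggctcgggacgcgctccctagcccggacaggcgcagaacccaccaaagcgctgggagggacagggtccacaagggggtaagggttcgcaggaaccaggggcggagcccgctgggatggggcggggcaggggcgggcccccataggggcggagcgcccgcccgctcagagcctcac
Notch3: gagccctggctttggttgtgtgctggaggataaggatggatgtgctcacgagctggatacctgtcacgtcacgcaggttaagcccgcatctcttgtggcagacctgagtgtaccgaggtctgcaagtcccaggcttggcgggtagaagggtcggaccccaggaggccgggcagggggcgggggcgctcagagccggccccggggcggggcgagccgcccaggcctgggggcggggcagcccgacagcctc
That these letters are missing from this window says nothing of binding elsewhere. Of the 10 genes, 9 matched the promoter table by symbol, with 10 promoters since Dll1 has 2 starts. A match was found in 1 of the 10, that of Lfng, and in 21.6% of all 32851 promoters of the same length.

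Notch2, which drives marginal zone B cell development and is widely present in progenitors, had 1 even and 1 more variable probe set. Its probe set 1455556_at was at 11.95 in the positive-labelled array, against 12.21, 12.09 and 11.96 in negative replicates 1, 2 and 3, a range of 0.26 log2 units. Here the positive-labelled array lay below the negative range by only 0.0146 log2 units. Probe set 1451889_at was at 9.996 in the positive-labelled array, against 9.68, 10.13 and 9.31, and the positive-labelled array lay inside the negative range. The range over the 4 arrays was 0.82 log2 units, against a median range of 0.59 over all probe sets. The differences between the labelled groups had opposite signs, -0.14 (SE 0.22, 95% interval -0.75 to 0.47) and 0.29 (SE 0.39, 95% interval -0.82 to 1.40). These intervals do not show that Notch2 was alike in the groups, but for 1455556_at they bound the difference to less than 1 log2 unit either way.

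Notch4, a receptor best known from endothelial cells, had its high values in a different array. Probe set 1449146_at was at 5.36 in the positive-labelled array, against 5.14, 5.17 and 6.91 in negative replicates 1, 2 and 3. Probe set 1456263_at was at 6.16 in the positive-labelled array, against 5.17, 5.68 and 7.11. Negative replicate 3 was the highest array in both, by 1.55 and 0.95 log2 units over the positive-labelled array. The third probe set, 1436901_at, was at 3.23 in the positive-labelled array and at 3.15, 3.32 and 3.25 in the negative arrays, near the dim end of the array and without any pattern. All 3 had a mean below the median of all probe sets, and detection calls were not part of the data used here, so whether Notch4 was present in these cells cannot be read from them. The differences between the labelled groups were -0.38, 0.17 and -0.01 log2 units, with SEs of 0.87, 0.86 and 0.20. The sign of the first turned without replicate 3 (0.21), and that of the second without replicate 1 (-0.24).

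**Figure D2:**
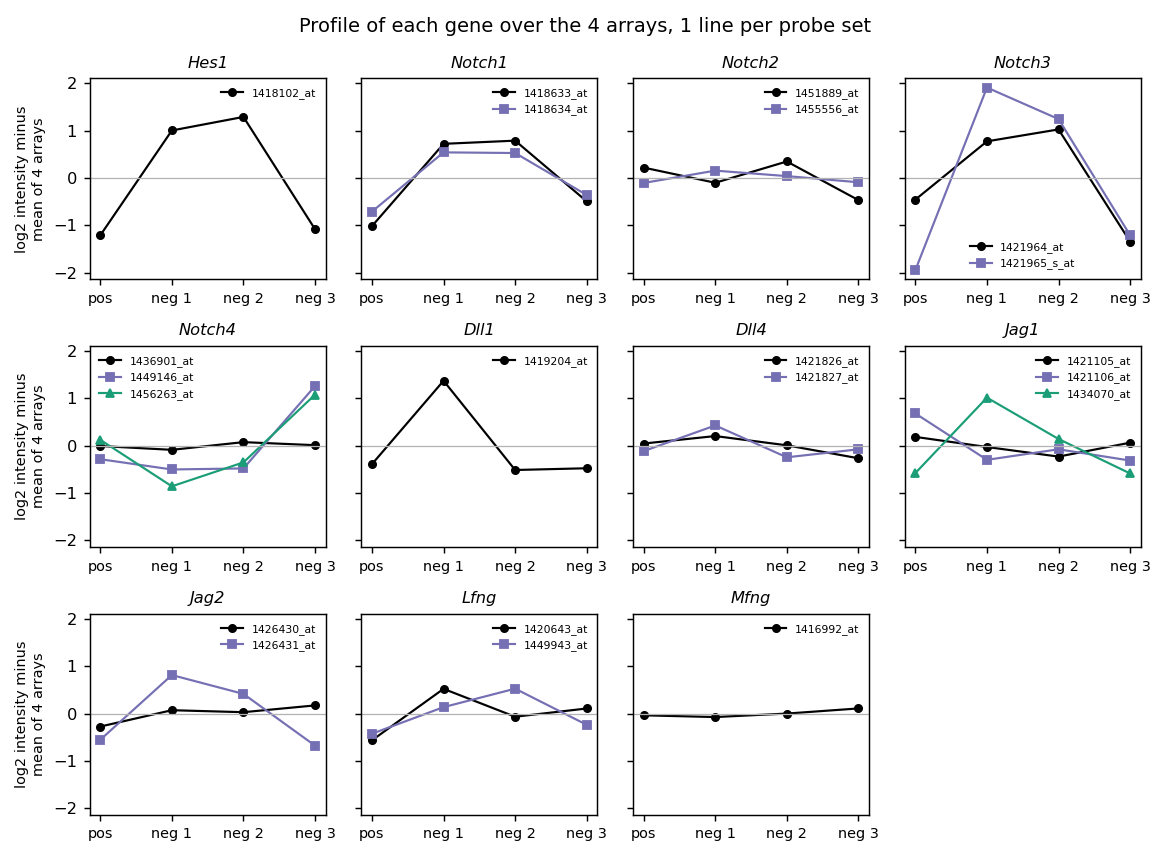
Log2 intensity minus the probe set's own mean over the 4 arrays (y axis), for Hes1 and each of the 10 genes, with 1 line per probe set. The positive-labelled array (pos) stands left of negative replicates 1, 2 and 3, and lines only join values of 1 probe set. Hes1, Notch1 and Notch3 are high in replicates 1 and 2, Notch4 in replicate 3 for 2 of its probe sets, and Notch2 (1455556_at) and Mfng are nearly flat.

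The ligands were mostly dim, and their probe sets often disagreed. Of the 8 ligand probe sets, 6 had a mean at or below the median of all probe sets, those of Dll1, Dll4 and Jag1. The positive-labelled array lay below the negative range in 1 of the 8 (12.5%), within it in 5 and above it in 2 (25%). Over all probe sets these shares were 23.6%, 53.1% and 23.2%. The median difference of the 8 was -0.26 log2 units.

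Dll1, the ligand that drives marginal zone B cells through Notch2, was set apart by 1 array. Its only probe set was at 5.57 in the positive-labelled array, against 7.34, 5.45 and 5.49 in negative replicates 1, 2 and 3. Negative replicate 1 stood 1.76 log2 units above the positive-labelled array, and the other 3 arrays lay close together. The difference between the labelled groups was -0.52 (SE 0.92), and without replicate 1 it was 0.11.

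Dll4, the ligand of thymic epithelium and of sprouting vessels, showed small differences at a dim level. Its probe set 1421826_at was at 5.20 in the positive-labelled array, against 5.36, 5.17 and 4.89, and 1421827_at at 5.52, against 6.06, 5.39 and 5.56 in negative replicates 1, 2 and 3. The positive-labelled array lay within the negative range in both. The differences between the labelled groups were 0.06 (SE 0.27) and -0.15 (SE 0.35) log2 units. In refits the signs of both turned, to -0.06 without replicate 3 and 0.05 without replicate 1.

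Jag1, a ligand of endothelium and stroma needed for blood vessel and bile duct development, gave 3 different patterns. Probe set 1421106_at was at 6.22 in the positive-labelled array, against 5.24, 5.46 and 5.22 in negative replicates 1, 2 and 3, so the positive-labelled array stood above all 3 negative arrays. Its difference of 0.91 log2 units had an SE of 0.22 and a 95% interval of 0.29 to 1.53. It was the only one of the 20 with an unadjusted limma p under 0.05, at 0.0159, and it did not pass after adjustment over all probe sets (adjusted p = 0.956). A difference of that size or more was seen in 9.01% of all probe sets. Probe set 1421105_at was at 6.16 in the positive-labelled array, against 5.94, 5.74 and 6.03, which is the same direction with a difference of 0.25 (SE 0.23). The third, 1434070_at, went the other way, with 5.08 in the positive-labelled array, against 6.67, 5.80 and 5.07, and a difference of -0.77 (SE 0.70). Here the positive-labelled array and negative replicate 3 were within 0.01 log2 units of each other. Averaged over its 3 probe sets, Jag1 differed by 0.13 log2 units (SE 0.27).

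Jag2, a ligand needed for limb and thymus development, was brighter than the middle of the array in both probe sets. Probe set 1426431_at was at 6.95 in the positive-labelled array, against 8.32, 7.92 and 6.83 in negative replicates 1, 2 and 3. The positive-labelled array and negative replicate 3 were low, and the groups overlapped. Probe set 1426430_at was at 7.42 in the positive-labelled array, against 7.76, 7.72 and 7.86, with the positive-labelled array the lowest of 4 close values. The differences were -0.74 (SE 0.67) and -0.37 (SE 0.20) log2 units, each with a limma adjusted p of 1.00.

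**Figure D3:**
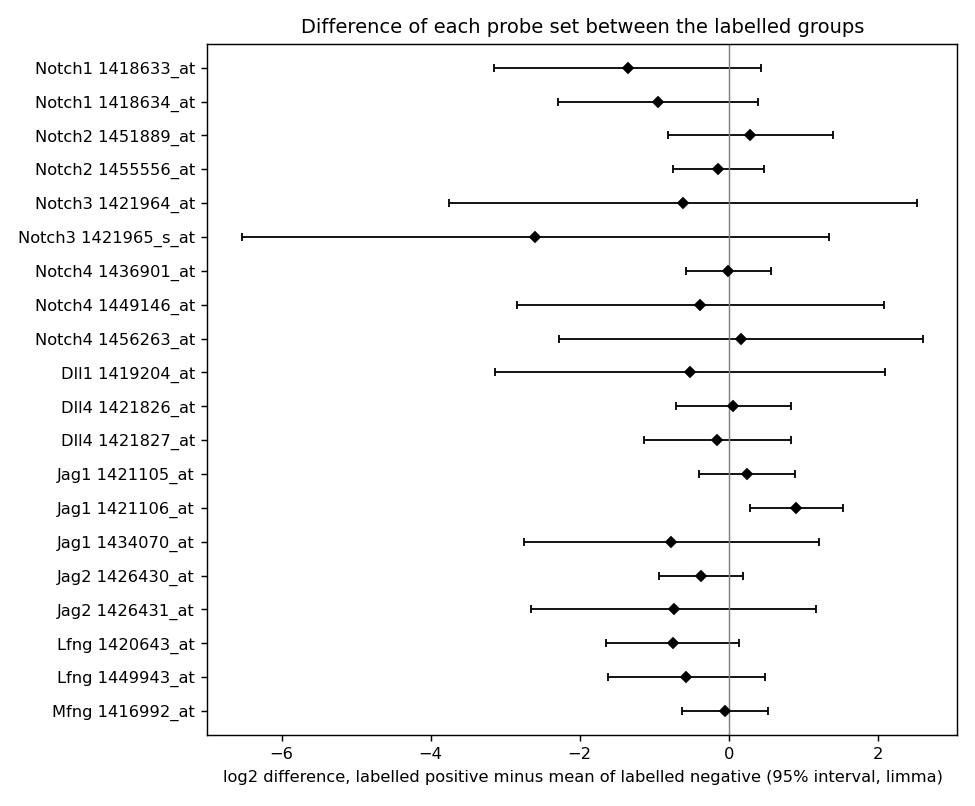
Log2 difference, labelled positive minus the mean of the 3 labelled negative arrays (x axis), for each of the 20 probe sets (rows), with limma's 95% interval as bars. The interval leaves out 0 in 1 row, Jag1 1421106_at, whose adjusted p was 0.956, and the widest interval is that of Notch3 1421965_s_at.

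Over the 3 fringe probe sets the positive-labelled array lay below the negative range in 2, within it in 1 and above it in 0. Over all probe sets these shares were 23.6%, 53.1% and 23.2%. Whether Lfng and Mfng differed from each other was not tested. Lfng, the fringe whose dose sets how well lymphoid progenitors compete for Delta-like ligands in the thymus, lay below the negative range in both probe sets. Its probe set 1420643_at was at 7.72 in the positive-labelled array, against 8.80, 8.21 and 8.39 in negative replicates 1, 2 and 3. Probe set 1449943_at was at 8.66 in the positive-labelled array, against 9.22, 9.61 and 8.85. The positive-labelled array was the lowest array in both, and the order of the 3 negative arrays differed between them. The differences were -0.75 (SE 0.32, 95% interval -1.65 to 0.14) and -0.57 (SE 0.37, 95% interval -1.62 to 0.49). Differences of these sizes or more were seen in 12.9% and 19.6% of all probe sets. Without negative replicate 1, 2 or 3 in turn, the first ran from -0.88 to -0.59 and the second from -0.76 to -0.38. With the positive-labelled array the lowest in both, leaving out a negative array could not turn the sign. Neither passed limma's test, with an adjusted p of 1.00 for each.

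The Lfng promoter (chr5:140607091-140607340, plus strand, GRCm38.p6) is shown because it was the only 1 of the 10 with the RBPJ core. Capitals mark its 2 matches, TTCCCA starting at position -135 and TGGGAA at -108, counted back from the base before the annotated start as -1.
Lfng: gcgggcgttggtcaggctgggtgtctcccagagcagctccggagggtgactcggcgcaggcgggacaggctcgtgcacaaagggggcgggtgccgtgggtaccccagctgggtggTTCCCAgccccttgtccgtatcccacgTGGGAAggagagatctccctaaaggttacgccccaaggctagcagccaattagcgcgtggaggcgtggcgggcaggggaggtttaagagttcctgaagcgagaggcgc
Of all promoters, 2.77% held 2 or more matches in this window. A match is a description of the sequence and not a binding site.

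Mfng, which together with Lfng supports marginal zone B cells, was the most even of the 3 fringe probe sets. It was at 11.17 in the positive-labelled array, against 11.14, 11.21 and 11.32 in negative replicates 1, 2 and 3. The difference was -0.05 log2 units (SE 0.20, 95% interval -0.63 to 0.53), and the range over the 4 arrays, 0.18, was one that 92.1% of all probe sets reached or passed.

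Taking the arrays in pairs shows where the 20 probe sets varied. The positive-labelled array and negative replicate 3 were 1 log2 unit or more apart in 1 of the 20, Notch4 1449146_at, where 8.49% of all probe sets were. Negative replicates 1 and 2 were that far apart in 1 of the 20, Dll1, where 11.7% of all probe sets were. The positive-labelled array and negative replicate 1 were that far apart in 8 of the 20 (12.8% of all), and it was the lower array in each of the 8. The positive-labelled array and negative replicate 2 differed so in 4 of the 20 (12.8% of all), and again the positive-labelled array was the lower in each. Negative replicates 1 and 3 differed so in 8 (12.6% of all) and negative replicates 2 and 3 in 6 (12.8% of all). Probe sets of 1 gene share their transcript, so these counts rest on fewer than 20 independent measurements. A range of 1 log2 unit or more over the 4 arrays was seen in 10 of the 20 probe sets, where 29.0% of all probe sets had one.

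**Figure D4:**
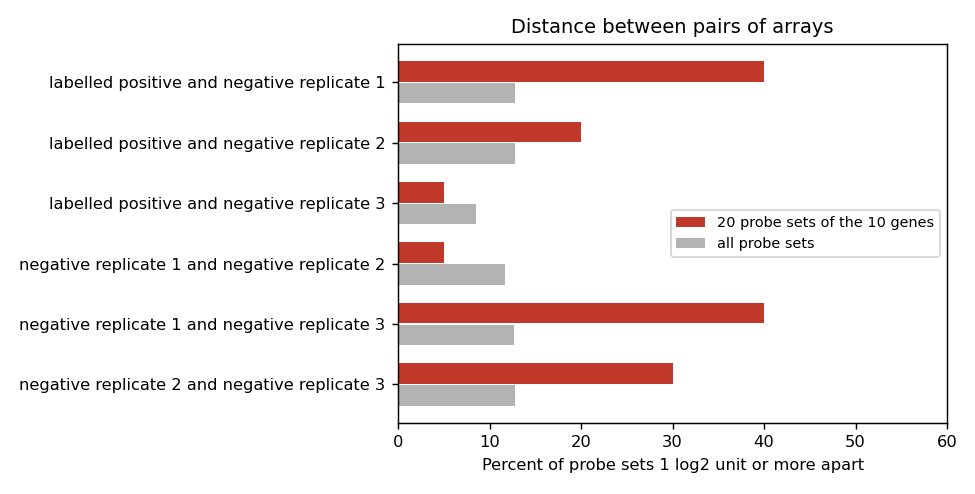
Percent of probe sets that were 1 log2 unit or more apart (x axis) in each of the 6 pairs of arrays (rows), for the 20 probe sets of the 10 genes and for all probe sets. The share of the 20 was above that of all probe sets in 4 pairs and below it in the pair of the positive-labelled array with negative replicate 3 and in the pair of negative replicates 1 and 2.

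Genes with the most similar profile over the 4 arrays were sought for each of the 10 genes whose brightest probe set ranged over 1 log2 unit or more, which held for Notch1, Notch3, Notch4 and Dll1. Likeness was the root mean square difference of values centred on their own mean, over 4513 other genes of the same range. Nearest to Notch1 were Il27ra (0.03 log2 units), a subunit of the interleukin 27 receptor, Rad9b (0.05) and Clec2d (0.05), a C-type lectin. Nearest to Notch3 were Cfp (0.08), the complement factor properdin, Pltp (0.10), a phospholipid transfer protein, and Pde8a (0.14), a phosphodiesterase. Psma8 (0.06), Arhgap28 (0.06) and Lrfn4 (0.06) were nearest to Notch4, and Mapt (0.01), Scara3 (0.05) and Rhoc (0.11) to Dll1. With 4 arrays a close profile need not be particular to a gene. Within a wider limit of 0.2 log2 units lay 121 of the 4513 genes for Notch1, 34 for Notch4, 27 for Dll1 and 10 for Notch3.

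The rest of the pathway was described with 1 probe set per gene, that with the highest mean, over lists of genes named for their place in the pathway. Over all 18193 genes, limma called 0 (0%), with 734 at an unadjusted p under 0.05 (4.03%). The positive-labelled array lay below the negative range in 23.0% of all genes, above it in 23.6% and within it in 53.4%, and the median difference was -0.001 log2 units.

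Among 10 other ligands, fringe and sugar-adding enzymes, 0 passed limma's test, 0 lay below the negative range and 2 lay above it, with a median difference of 0.06. Poglut1, which adds O-glucose to Notch repeats, was at 8.53 in the positive-labelled array, against 7.82, 8.10 and 7.83 in negative replicates 1, 2 and 3. Rfng, the remaining fringe, was at 10.13, against 9.75, 9.09 and 10.11. Pofut1, which adds the O-fucose that fringe enzymes extend, was at 8.63, against 9.30, 8.28 and 9.46. Dlk1, a non-canonical ligand of foetal tissues, was at 9.23, against 7.76, 6.78 and 10.13, high in the positive-labelled array and in negative replicate 3.

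Of 13 genes for ubiquitination and trafficking of ligands and receptors, 0 passed limma's test, 2 were below the negative range, 4 were above it and the median difference was 0.25. Dtx1, an E3 ligase of the Deltex family and also a Notch target, was at 4.17 in the positive-labelled array, against 8.25, 5.94 and 4.21 in negative replicates 1, 2 and 3. Numbl, a relative of the Notch inhibitor Numb, was at 6.98, against 6.11, 6.16 and 5.56, above all negative arrays. Dtx3 was at 8.33, against 7.97, 7.69 and 7.12, and Neurl1b, a ligase that promotes ligand uptake, at 5.80, against 4.76, 6.66 and 4.85. Here the values of negative replicate 3 were close to those of the positive-labelled array for Dtx1 and not for Numbl.

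Of 10 genes for the proteases that cut Notch, 8 were measured. Of these, 0 passed limma's test, 1 was below the negative range, 2 were above it and the median difference was -0.13. The 4 with the largest differences, Aph1a, Ncstn, Aph1b and Psen2, all parts of gamma-secretase, ranged from -0.41 for Aph1a to 0.35 for Ncstn. With its probe sets averaged, Ncstn was at -0.09.

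In the nuclear complex, 13 of 16 genes were measured and 0 passed limma's test. The positive-labelled array lay below the negative range in 5 and above it in 1, with a median difference of -0.08. Spen, a co-repressor that binds RBPJ, was at 8.38 in the positive-labelled array, against 9.16, 9.25 and 8.67 in negative replicates 1, 2 and 3. The next largest differences were those of Tle4 (-0.55) and Tle3 (-0.44), co-repressors of the Groucho family, and Kat2b (-0.48), a histone acetyltransferase. With probe sets averaged, Tle4 and Kat2b turned to 0.08 and 0.12.

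Of 17 Notch targets, Notch1 and Notch3 among them, 0 passed limma's test. The positive-labelled array lay below the negative range in 9 of them and above it in 1, with a median difference of -0.18. The 9 make 52.9% of the list, where 23.0% of all genes did so. For some of the 9 the margin was small. The positive-labelled array and the lowest negative array were at 3.768 and 3.775 for Ptcra, and at 3.89 and 3.93 for Il2ra. They were at 4.17 and 4.21 for Dtx1, and at 10.09 and 10.13 for Ccnd1. With probe sets averaged, the difference of Ccnd1 turned from -0.15 to 0.04, and the rest of the 9 kept their sign. Margins were wider for Gata3 (5.83 and 6.21), Notch1 (10.50 and 10.85) and Bcl2 (10.34 and 10.62). Besides Hes1 and Dtx1, the largest differences were those of Gata3 (-1.60), a T cell transcription factor, and of Hes7 (1.18), a repressor of the segmentation clock. Hes7 was at 6.19 in the positive-labelled array, against 4.93, 4.68 and 5.41 in negative replicates 1, 2 and 3, at a dim level. The median difference of the targets was -0.31, -0.49 and -0.03 against negative replicates 1, 2 and 3, each taken alone.

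Markers of several other cell types differed between the arrays in the same way. Endothelial cells are known to express Notch4, Dll4 and Jag1, and over their 14 markers the summed linear intensity was 4017 in the positive-labelled array, against 7636, 7308 and 4803 in negative replicates 1, 2 and 3. The positive-labelled array lay below the negative range in 10 of the 14 (71.4%), where 23.0% of all genes did. It lay above that range in 1, where 23.6% of all genes did. Egfl7, among the 10, was at 10.83 in the positive-labelled array, against 10.915, 11.32 and 10.93. Its difference was 0.08 with probe sets averaged. The median difference of the list was -0.45 log2 units. Cdh5, which encodes VE-cadherin, had the largest difference of the 14, with 4.83 log2 units there, against 9.71, 9.45 and 6.16. Tek, the angiopoietin receptor, went the other way, with 7.36 against 6.19, 6.04 and 6.72, and Tie1, Cldn5 and Stab2 were within the negative range. The B lineage sum over 10 of 11 markers was 4200 in the positive-labelled array, against 23698, 23487 and 4170. The macrophage sum over 10 markers was 3727, against 21343, 20248 and 3089. The T and innate lymphoid sum over 6 of 9 markers was 280.0, against 1642, 2019 and 410.0. Sums of these 4 lists were thus high in negative replicates 1 and 2, as were Notch1 and Notch3, and low in the positive-labelled array and in negative replicate 3, the array where 2 Notch4 probe sets were highest. Single endothelial markers did not all follow their sum. Emcn was at 8.10 in the positive-labelled array, against 8.37, 8.31 and 9.19 in negative replicates 1, 2 and 3. Tie1 was at 7.57, against 7.28, 7.86 and 8.25, so both were highest in negative replicate 3. Most other endothelial markers were highest in negative replicate 1 or 2. The granulocyte sum over 6 markers ran the other way, at 58678 in the positive-labelled array, against 34957, 35223 and 57776. The brightest probe sets of a list weigh most in such sums, so the sums were compared only between arrays. Of the other lists, the megakaryocyte and stroma sums were also highest in negative replicates 1 and 2, by narrower margins. The hepatoblast and LSK sums did not split the arrays in this way. The erythroid sum over 6 of 8 markers was 17877, against 14173, 14981 and 18294, and like the granulocyte sum it was lower in negative replicates 1 and 2. The hepatoblast sum over 8 markers was 2934, against 2526, 1911 and 2152. The megakaryocyte sum over 4 of 5 markers was 1875, against 1980, 2223 and 1302. The stroma sum over 6 markers was 735, against 858, 1005 and 856. The LSK sum over 9 of 11 markers was 13157, against 15251, 12165 and 12344. The part of these cell types in the values of the Notch genes was not tested.

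**Figure D5:**
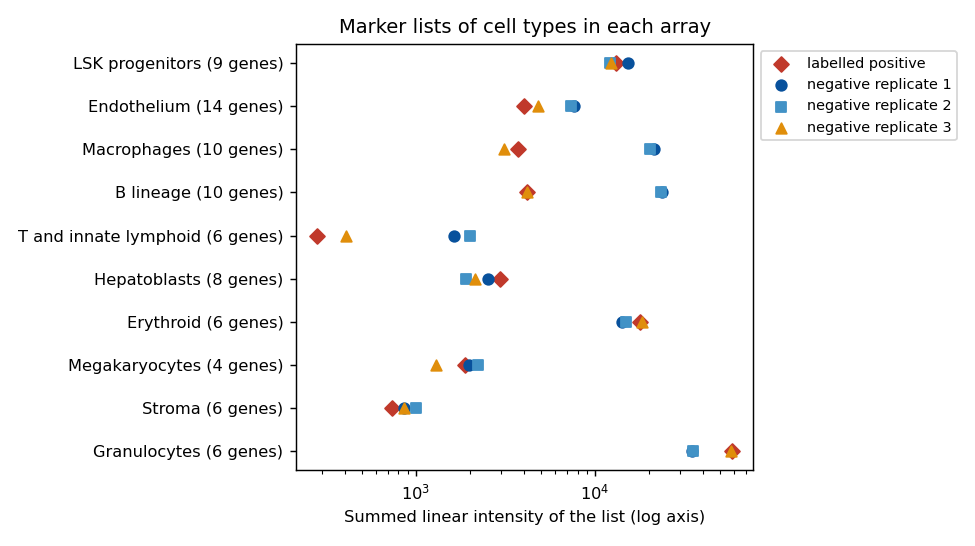
Summed linear intensity (x axis, log scale) of each list of cell type markers (rows) in the array labelled HES1-GFP positive and in HES1-GFP negative replicates 1, 2 and 3. Negative replicates 1 and 2 sit right of the other 2 arrays in the endothelial, macrophage, B lineage and T and innate lymphoid rows. They do so by narrower margins in the megakaryocyte and stroma rows. They sit left of the other 2 arrays in the granulocyte and erythroid rows.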

How the data were processed

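Gene expression was measured on 4 Affymetrix arrays. Per the labels' protocols, 5 ng of total RNA per sample was amplified before labelling with biotin. Such amplification may add noise, above all to dim genes. Per the submitters' processing notes the deposited intensity values were made with RMA, with the software and version not given in the sources used here. Deposited values run from 4.27 to 27451 and are linear, where the design had assumed log2 values. They were turned into log2 values here with no pseudocount. Of 45101 probe sets, 64 controls were left out. The platform annotation gave 1 gene symbol for 34945 of the other 45037, several for 932 and none for 9160, and 34741 of the first matched the RefSeq gene table by gene ID. Only probe sets with 1 symbol were named.

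The comparison was fitted over all 45037 probe sets with limma's lmFit and eBayes (limma 3.58.1, R 4.3.3), as a two-sided test, and p-values were adjusted by Benjamini-Hochberg, with 0.05 as the threshold. It had 2 residual and 1.80 prior degrees of freedom. The fit was checked on simulated data. All probe sets of the 10 genes are named, together with the 4 genes of each pathway list with the largest absolute difference and the 3 nearest genes by profile. Kit, Ly6a, Flt3, Cdh5, Tek, Tie1, Cldn5, Stab2, Emcn, Egfl7, Ptcra, Il2ra, Ccnd1 and Bcl2 were named outside this rule. The members and lists were chosen with earlier results of these data known. The number of arrays limits the precision.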

Additional observations from a re-analysis of the deposited data

How the results depend on the processing

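No probe set passed limma's adjusted threshold under any alternative run: a pseudocount of 16, cyclic loess, only probe sets above the median level, trend and robust settings, 1 probe set per gene, averaged probe sets, and each negative replicate left out. At an unadjusted p under 0.05, fits over all 45037 probe sets gave 1754 (trend and robust settings) to 3275 (without negative replicate 3), and fits over 18193 genes gave 724 and 734. The filtered fit, over fewer probe sets, gave 835. The share of the Notch probe sets below the negative range was 63.6% when dim probe sets were filtered out, which drops 9 of them and left 20.5% of all remaining probe sets below it, and 40% to 50% with 1 negative replicate left out, where a range of 2 arrays is narrower by construction and 31.0% to 34.5% of all probe sets lay below it. The share above the range was 0% with that filter (25.8% of all remaining) and 0% with averaged probe sets (24.0% of all genes), and 15% to 20% with 1 replicate left out, where 30.0% to 34.4% of all probe sets lay above it. The median difference kept its sign, at -0.61 with that filter and -0.33 to -0.27 with 1 replicate left out.

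Signs turned in 9 cases, all of differences that had not passed the test. Cyclic loess turned Notch4 1436901_at to 0.0227. Averaging turned Notch2 to 0.0764 and Notch4 to -0.0721, since their probe sets disagree. Leaving out 1 replicate gave -0.0499 to 0.0314 for Notch4 1436901_at, -0.68 to 0.21 for 1449146_at and -0.24 to 0.73 for 1456263_at. It gave -0.84 to 0.11 for Dll1, -0.0604 to 0.17 for Dll4 1421826_at and -0.29 to 0.0465 for Dll4 1421827_at. Without negative replicate 3 the differences of Notch1 were -1.77 and -1.25 and those of Notch3 -1.36 and -3.53. No paired analysis was possible because the groups share only replicate number 1. Signal limits the 9 probe sets with a mean at or below the median level, for which no detection calls were at hand.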
